A study of Drosophila melanogaster with 3 samples.

Results

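The intervals described here are the sites of GFP-tagged Aubergine (Aub) crosslinking that were called on transcripts of the mitochondrial genome of Drosophila melanogaster. They are the rows of the 3 deposited interval lists whose chromosome is the mitochondrial genome, 213 of 51962 rows in all. The rule used only the chromosome name, and no measured value. In iCLIP, short for individual-nucleotide crosslinking and immunoprecipitation, ultraviolet light links a protein covalently to RNA in contact with it. The RNA that is purified with the protein is then sequenced. The 3 libraries, numbered 1 to 3 in their titles, form 1 group.

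All libraries came from cultured germline stem cells, irradiated at 254 nm with 150 mJ/cm2 and given no drug. The cells carried UASp-GFP-aub/+ and, on another chromosome pair, bam∆86hs-bam over nos-gal4 bam∆86. They thus lack normal bam, a gene that the progeny of germline stem cells need to differentiate, and hold a heat-shock bam transgene. The protein studied is an added, tagged copy under UASp, which nos-gal4 drives in the germline. The labels do not name separate cultures for the libraries, so p-values and SDs may describe technical spread only. No control library was analysed here, and a called interval is not corrected for background or for the amount of the transcript. In such bulk libraries, more mitochondrial RNA per cell, more cells that hold it and more crosslinking per RNA cannot be told apart.

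Aub belongs to the Piwi class of Argonaute proteins, which bind piRNAs, small RNAs that direct transposon silencing in germ cells. Mitochondria keep a small circular genome that is read on both strands into long precursor RNAs. These are cut, mostly at the tRNAs that lie between the other genes, into rRNAs of the mitochondrial ribosome, tRNAs and mRNAs for subunits of the respiratory chain and ATP synthase. Those proteins are made inside the organelle, while most mitochondrial proteins are made from nuclear genes in the cytoplasm.

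The files give each interval a FlyBase gene ID without a symbol, and none of the 28 mitochondrial IDs is listed in the RefSeq gene table used here (assembly Release 6 plus ISO1 MT). The genes were therefore named by position. All intervals of each of the 28 IDs lay inside exactly 1 of the 37 mitochondrial genes of that table, and no gene was matched by a second ID. The table belongs to a later assembly than dm3, the build of the files. The sequences of the builds could not be compared here. All 28 matches stayed the same when every interval was moved by up to 6 nt in either direction, and 26 and 24 of them when it was moved back or forward by 20 nt. Names below rest on this match, positions are those of the files (dm3, 1-based), and gene lengths are those of the table.

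Replicate 1 held 38 mitochondrial intervals, replicate 2 held 105 and replicate 3 held 70, among 3986, 35824 and 11685 distinct intervals. Their shares were 0.953% (95% Wilson interval 0.695 to 1.31), 0.293% (0.242 to 0.355) and 0.599% (0.474 to 0.756), with a mean of 0.615% ± 0.330 (SD, n = 3). Mitochondrial intervals were short, and the mean share was 0.355% by covered nucleotides and 0.238% among intervals at or above the median width of their library. The interval of replicate 2, the library with by far the most intervals, lay below the other 2, which overlapped. The deposited score was 0 throughout, so no interval has a height, and the depth in reads is unknown. Wilson intervals cover counting error only and treat intervals as independent.

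Intervals fell in 28 of the 37 mitochondrial genes. They lay in both rRNA genes, in all 13 protein-coding genes and in 13 of the 22 tRNA genes. Of the 28 genes, 10 held intervals in all 3 libraries, 8 in exactly 2 and 10 in 1. The first number is 35.7% of the 28, against 20.9% of all 6502 genes with an interval in any library, and 64.3% held intervals in at least 2 libraries, against 50.3% of all genes. These shares were not tested, since genes of a library are not replicates. The share in all 3 libraries also cannot exceed the part of the genes found in replicate 1. That library held 11 of the 28 mitochondrial genes, 10 of them common to all libraries. It also held 1448 genes on other chromosomes. In the whole series 1361 genes, these 10 included, were common to all libraries. Among genes of replicate 1, most were thus common in both sets, and no excess of the mitochondrial genes is shown. The 10 genes common to the libraries were both rRNAs, 7 coding genes (COX1, COX3, ATP6, ATP8, ND4, ND5 and CYTB) and trnR. All 11 mitochondrial genes of replicate 1 were also found in replicate 2, and 10 of them in replicate 3. Replicates 2 and 3 alone shared ND1, ND2, ND6, COX2, trnA, trnG and trnI, while replicates 1 and 2 alone shared trnM. Genes found in a single library were ND3, ND4L, trnC, trnF, trnH, trnN and trnS1 in replicate 2, and trnD, trnK and trnY in replicate 3.

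**Figure D1:**
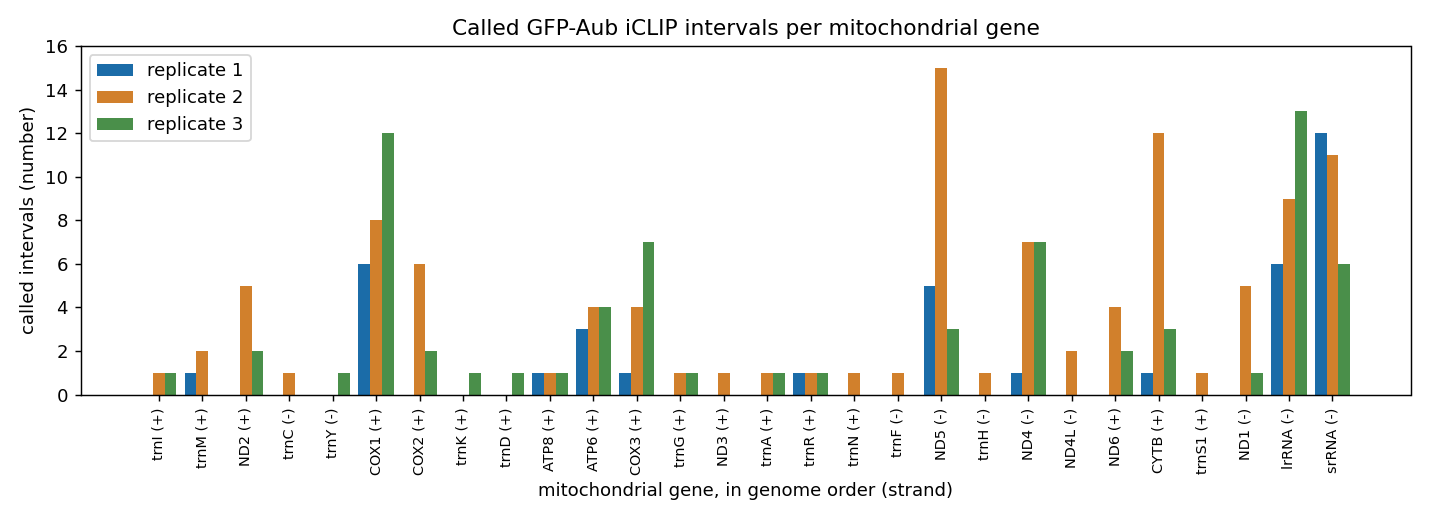
Number of called intervals (vertical axis) in each of the 28 mitochondrial genes with any interval, in genome order with the strand in brackets (horizontal axis). Each bar is 1 library. The rRNA genes srRNA and lrRNA and the coding gene COX1 hold at least 6 intervals in every library, while ND5 and CYTB reach 15 and 12 in replicate 2 and at most 5 and 3 elsewhere.

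Summed over the 2 rRNA genes, the number of intervals was nearly the same in every library. The sum joins opposite trends, with 12, 11 and 6 intervals in srRNA and 6, 9 and 13 in lrRNA in replicates 1, 2 and 3. There were 18 in replicate 1, 20 in replicate 2 and 19 in replicate 3, although the libraries differed widely in size. Over the same libraries the coding genes held 18, 74 and 44 intervals and the tRNA genes 2, 11 and 7. The rRNA share of mitochondrial intervals was accordingly 47.4%, 19.0% and 27.1% in replicates 1, 2 and 3, with 95% Wilson intervals of 32.5 to 62.7, 12.7 to 27.6 and 18.1 to 38.5. It was highest in the smallest library, and the intervals of replicates 1 and 2 did not overlap. The rRNA genes make up 14.3% of the length of the 37 genes.

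Per summed length, the rRNA genes had the most intervals of the 3 classes in each library. They held 8.53, 9.48 and 9.0 intervals per kb in replicates 1, 2 and 3 (mean 9.0 ± 0.47, SD, n = 3). Coding genes held 1.61, 6.62 and 3.94 per kb (4.06 ± 2.51), and tRNA genes 1.37, 7.55 and 4.80 (4.58 ± 3.09). As class sums, the rRNA values of the 3 libraries lie above every coding and every tRNA value. Single genes did not all follow. The lrRNA gene alone held 4.53, 6.80 and 9.82 per kb in replicates 1, 2 and 3. In replicate 2 this was below the tRNA class and close to the coding class. Some single genes of the other classes lay above the rRNA sum, such as CYTB in replicate 2 (10.6) and trnR in each library (15.6). The ratio of rRNA to coding density was 5.30, 1.43 and 2.29 in replicates 1, 2 and 3, and the difference was 4.95 ± 2.03 intervals per kb. It was positive in 3 of 3 libraries (exact two-sided sign-flip permutation test over libraries, p = 0.25, which is the smallest that 3 libraries allow). The difference between tRNA and coding genes was 0.52 ± 0.66 per kb and had the opposite sign in replicate 1 (exact p = 0.50).

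The count also depends on how finely a site is cut into intervals. Joining the intervals of a gene and library that lay within 10 nt left 13, 11 and 15 rRNA sites and 16, 52 and 33 coding sites. The rRNA density was then still higher than the coding density in each library, by 4.73, 0.56 and 4.16 sites per kb. This gap nearly closed in replicate 2. The tRNA genes kept 2, 10 and 7 sites. In replicate 2 these were 10 sites on 1457 nt of tRNA genes, against 11 sites on 2110 nt of rRNA genes. After joining, the tRNA genes were thus the densest class in replicate 2. By nucleotides, intervals covered 8.10%, 12.5% and 13.9% of the rRNA length in replicates 1, 2 and 3, against 2.10%, 7.12% and 4.22% of the coding length. The tRNA length was covered to 1.72%, 9.68% and 6.79%.

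**Figure D2:**
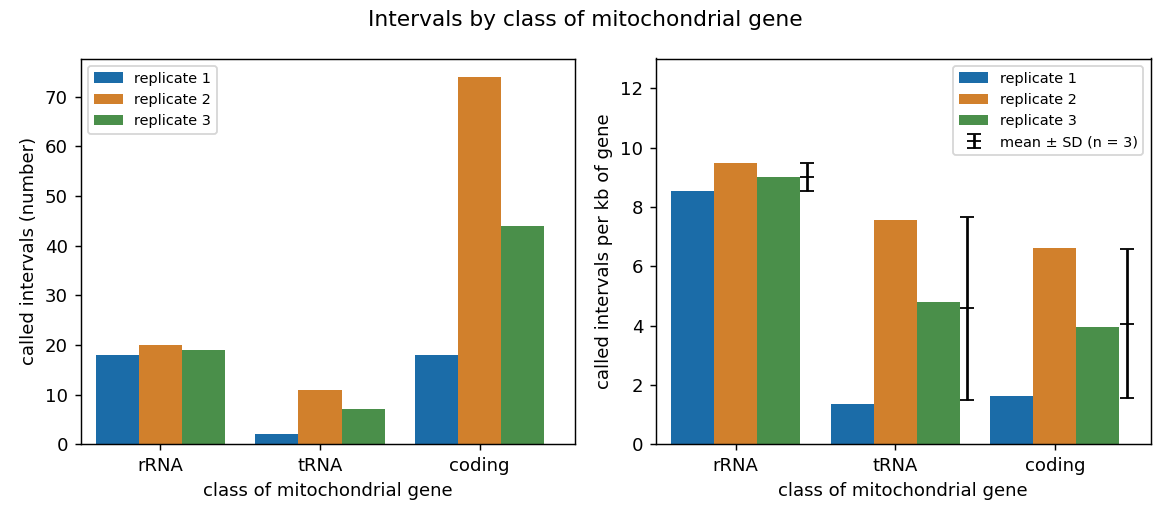
Called intervals in mitochondrial rRNA, tRNA and coding genes, as numbers (left) and per kb of summed gene length (right). Bars are libraries and the black marks at the right of each group are mean ± SD over the 3 libraries. The rRNA bars, each a sum over srRNA and lrRNA with opposite trends, stay between 18 and 20 intervals. The coding bars range from 18 to 74.

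The small rRNA gene, srRNA (FBgn0013688, minus strand, intervals between 14159 and 14810), encodes the RNA of the small subunit of the mitochondrial ribosome. It held 12, 11 and 6 intervals in replicates 1, 2 and 3, or 15.3, 13.99 and 7.63 per kb (mean 12.3 ± 4.09, SD, n = 3). Replicate 3 had the fewest intervals but the most coverage, 122 nt against 101 and 116 nt in replicates 1 and 2. A single interval of 55 nt in replicate 3, the widest of all mitochondrial intervals, spanned a stretch that the other libraries broke into several. The large rRNA gene, lrRNA (FBgn0013686, minus strand, 12786 to 14028), encodes the RNA of the large subunit. It held 6, 9 and 13 intervals, or 4.53, 6.80 and 9.82 per kb (7.05 ± 2.65). The order of the libraries was thus opposite in the 2 rRNAs, with srRNA denser in replicates 1 and 2 and lrRNA in replicate 3.

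Exact positions also recurred in the rRNAs. In all 3 libraries 4 5′ edges of intervals were identical to the nucleotide, and all 4 lay in rRNA. In srRNA they were 14718 and 14407, and in lrRNA 14028 and 13452. On the minus strand the 5′ edge is the higher coordinate. At 14718 the intervals were 18, 2 and 18 nt wide in replicates 1, 2 and 3. At 14407 they were 25, 3 and 55 nt wide, at 14028 they were 10, 25 and 14 nt wide, and at 13452 they were 26, 25 and 31 nt wide. Equal 5′ edges therefore mostly came with unequal 3′ edges. The only 3′ edge common to all libraries was 14701, in srRNA, where replicates 1 and 3 had the same interval from 14701 to 14718. Over the whole series 0.0611% of 50701 distinct 5′ edges and 0.0810% of 50622 distinct 3′ edges occurred in all 3 libraries. The shares were 4 of 195 (2.05%) and 1 of 200 (0.50%) among mitochondrial edges, and 4 of 45 5′ edges (8.89%) among those in rRNA. Such a share is limited by the smallest library, which supplied a larger part of the mitochondrial than of the other edges. Within replicate 1, 4 of 38 mitochondrial intervals (10.5%) had a 5′ edge found in both other libraries. On other chromosomes these were 27 of 3948 (0.684%). Of the 31 5′ edges common to all libraries in the series, 27 lay on other chromosomes. An iCLIP read starts beside the crosslinked nucleotide, but these are edges of called intervals and not of reads.

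Nucleotides covered in all libraries also lay mainly in the rRNAs. Intervals of any library covered 1829 mitochondrial nt, of which 1298 were covered in 1 library, 395 in 2 and 136 in all 3. The rRNAs held 105 of these 136 nt (77.2%) and 401 of the 1829 nt (21.9%). Within srRNA 62 nt were common to the libraries, in 7 stretches that included 14383 to 14401, 14355 to 14371 and 14701 to 14714. In lrRNA there were 43 nt in 3 stretches, from 13428 to 13452, 14019 to 14028 and 13119 to 13126. Of the nucleotides covered in any library, 26.2% were covered in all 3 in rRNA, 2.44% in coding genes and 0.505% in tRNA genes. On the other chromosomes the share was 1.86% of 834432 nt. Coverage was densest in rRNA, and its part in this overlap was not tested. As for the edges, a share covered in all 3 libraries is limited by what replicate 1 covered.

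**Figure D3:**
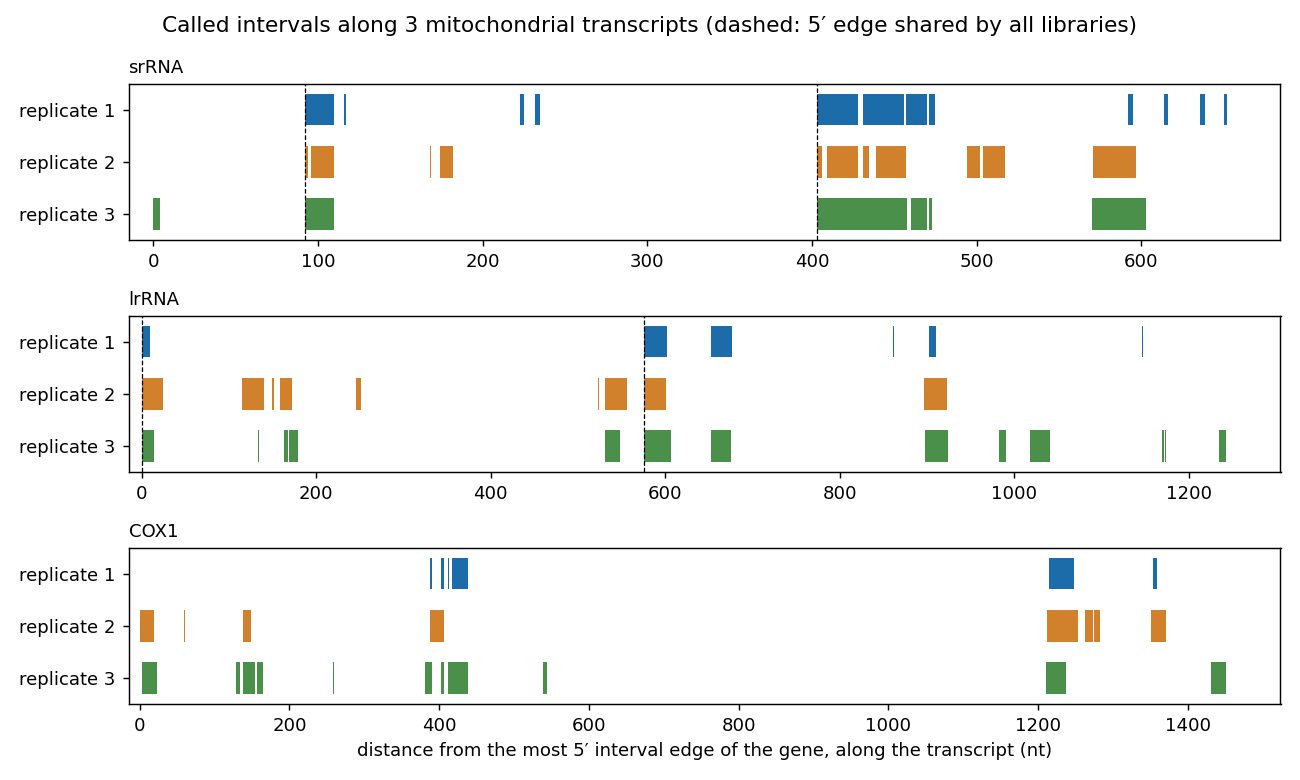
Called intervals along srRNA, lrRNA and COX1, by library. The horizontal axis is the distance in nt along the transcript from the most 5′ interval edge of that gene, each block is 1 interval, and dashed lines mark the 4 5′ edges shared by all libraries (the one of lrRNA at 14028 is at distance 0).

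**Figure D4:**
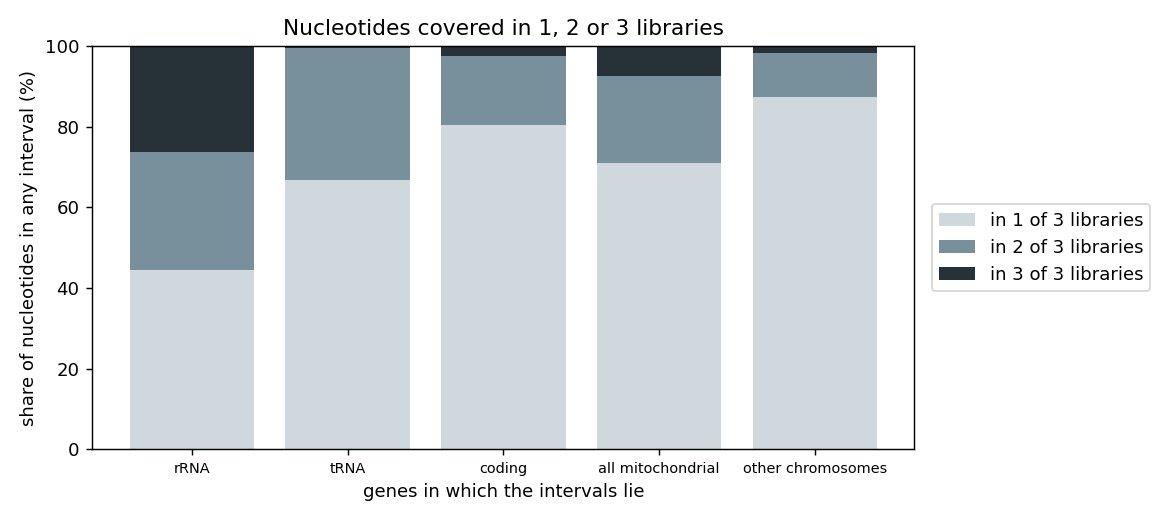
Share of the nucleotides in any interval (vertical axis, %) that were covered in 1, 2 or 3 libraries, for intervals in mitochondrial rRNA, tRNA and coding genes, for all mitochondrial intervals and for the other chromosomes. The part covered in all 3 libraries is 26.2% in rRNA and 1.86% on the other chromosomes.

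Among coding genes, complex IV (cytochrome c oxidase, which passes electrons to oxygen) held intervals in every library in 2 of 3 genes. Complex V (ATP synthase) did so in 2 of 2. Over all coding genes this was 7 of 13 (53.8%), against 20.9% of all genes with an interval. Replicate 1 held intervals in these 7 coding genes only, so the share was at its limit and shows no excess over other genes. Counts over 2 or 3 genes do not set these complexes apart from the other coding genes. COX1 (FBgn0013674, plus strand, 1559 to 3009), the catalytic subunit of complex IV, held 6, 8 and 12 intervals in replicates 1, 2 and 3, or 3.91, 5.21 and 7.81 per kb. Its mean share of mitochondrial intervals was 13.5% ± 5.15 (SD, n = 3), close to those of lrRNA (14.3% ± 5.16) and srRNA (16.9% ± 12.8). The srRNA mean rested on replicate 1, with shares of 31.6%, 10.5% and 8.57% in replicates 1, 2 and 3. Without replicate 1 it was 9.52%, below lrRNA (13.6%) and COX1 (12.4%). The 3 shares did not differ beyond their spread. COX1 also held 29 of the 30 coding nucleotides that were covered in every library, of which 23 lay in 1 stretch from 2773 to 2795. The others lay at 1947 to 1949 and 1962 to 1964, inside a site from 1940 to 1996 that held 4, 1 and 3 intervals. COX3 (FBgn0013676), a core subunit of the same complex, held 1, 4 and 7 intervals, with more in replicate 3 than in the larger replicate 2. COX2 (FBgn0013675), the subunit that receives electrons from cytochrome c, held 0, 6 and 2. Together complex IV genes held 7, 18 and 21 intervals, or 2.33, 5.98 and 6.98 per kb.

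ATP6 and ATP8 encode subunits of the membrane part of ATP synthase. ATP6 (FBgn0013672) held 3, 4 and 4 intervals and ATP8 (FBgn0013673) 1 in each library. Their joint density of 4.78, 5.97 and 5.97 per kb (5.58 ± 0.69, SD, n = 3) varied little between libraries of very different size. The 3 intervals of ATP8 lay within 25 nt, from 3984 to 4008, and the one of replicate 1 was 1 nt wide, at 3996. In the table ATP8 and ATP6 overlap, but no mitochondrial position was assigned to a second gene.

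Complex I (NADH dehydrogenase, where electrons enter the chain) and complex III held most of their intervals in replicate 2, the library with the most intervals. Over all coding genes, replicate 2 held 74 intervals, against 18 and 44 in replicates 1 and 3. Of the 7 complex I genes 2, ND4 and ND5, held intervals in every library. Together the 7 held 6, 39 and 15 intervals, or 0.97, 6.30 and 2.42 per kb. ND5 (FBgn0013684, minus strand, 6448 to 8063), a proton-pumping subunit, held 5, 15 and 3 intervals. ND4 (FBgn0262952), also a proton-pumping subunit, held 1, 7 and 7. Yet no nucleotide of ND4 was covered in more than 1 library, and the intervals of replicates 2 and 3 fell in different sites of the gene. Replicate 3 held 5 intervals of ND4 between 8797 and 8854, where the other libraries had none. ND2, ND6 and ND1 held 5, 4 and 5 intervals in replicate 2, 2, 2 and 1 in replicate 3 and none in replicate 1. CYTB (FBgn0013678), the cytochrome b of complex III, held 1, 12 and 3 intervals, or 0.88, 10.6 and 2.64 per kb. In replicate 1 at most 1 interval fell in each coding gene other than COX1, ND5 and ATP6, so a value there often rests on a single interval.

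Coding genes lie on both strands, 9 on the plus and 4 (ND1, ND4, ND4L and ND5) on the minus strand. Plus-strand coding genes held 1.74, 6.53 and 4.79 intervals per kb and minus-strand ones 1.4, 6.77 and 2.57. The difference of 0.78 ± 1.29 per kb was negative in replicate 2 and lay within the spread between libraries (exact two-sided sign-flip permutation test, p = 0.50, n = 3). Over all genes, rRNAs included, 14 of 38, 53 of 105 and 39 of 70 intervals lay on the plus strand, or 36.8% (95% Wilson interval 23.4 to 52.7), 50.5% (41.1 to 59.9) and 55.7% (44.1 to 66.8). The mean was 47.7% ± 9.74, against 49.8% ± 0.876 on other chromosomes (SD, n = 3). The difference was negative in replicate 1 and positive in the others.

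Transfer RNA genes mostly held a single interval in a library. The exception was trnM, with 2 in replicate 2. Only trnR, the arginine tRNA (FBgn0013704), held an interval in every library. These lay between 6092 and 6118 and were 14, 27 and 11 nt wide, but only 1 nt, at 6105, was covered in all of them. It stands in a row of plus-strand tRNA genes with trnA and trnN, whose intervals joined with it into a site from 6027 to 6183. In trnA, the alanine tRNA, replicates 2 and 3 had an identical interval from 6027 to 6045. In trnI, the isoleucine tRNA, intervals of the same libraries ended at the same nucleotide, 65. The gene is 65 nt long and comes first in the genome order. Whether this shared edge is its annotated end was not examined. The 9 tRNA genes without any interval were trnQ, trnW, trnL1, trnL2, trnS2, trnE, trnT, trnP and trnV. These genes are short, between 61 and 73 nt, and the absence of an interval at an unknown read depth does not show an absence of contact.

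Joined within 50 nt on 1 strand, the mitochondrial intervals of all libraries formed 76 sites. Of these 76, 12 held intervals of all 3 libraries, 21 of exactly 2 and 43 of 1. In the whole series 1224 of 26114 sites (4.69%) held intervals of all 3 libraries. Such a share is limited by replicate 1, which supplied 38 of the 213 mitochondrial intervals and 4007 of the 51962 in all. The 12 common sites, 25 to 166 nt long, held 75 of the 213 intervals, and 6 of these sites lay in rRNA. In srRNA they ran from 14159 to 14240 with 4, 1 and 1 intervals in replicates 1, 2 and 3, from 14294 to 14407 with 4, 6 and 3, and from 14694 to 14718 with 2, 2 and 1. In lrRNA they ran from 13105 to 13167 with 2, 1 and 1, from 13352 to 13505 with 2, 3 and 3, and from 14004 to 14028 with 1 in each library. Most intervals of srRNA thus fell in common sites. The other 6 were the COX1 sites from 1940 to 1996 and from 2770 to 2840, the ATP8 site, an ATP6 site from 4391 to 4438, an ND5 site from 7713 to 7878 and the tRNA row. The ND5 site held 1, 4 and 3 intervals, yet no nucleotide of ND5 was covered in all libraries.

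Across the 28 genes the number of intervals was positively related between libraries, with Pearson's r of 0.68 for replicates 1 and 2, 0.67 for 1 and 3 and 0.61 for 2 and 3 (Spearman's rho 0.65, 0.68 and 0.69). Over the 13 coding genes alone r was 0.57, 0.67 and 0.33, and rho 0.45, 0.76 and 0.61. Longer genes held more intervals. Over all 37 genes r with gene length was 0.58, 0.91 and 0.78 in replicates 1, 2 and 3, and over the 13 coding genes 0.67, 0.87 and 0.62. These values are across genes, which share library, strand and precursor RNA, so they are a description without a test.

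The median width of mitochondrial intervals was below that of the rest in each library. Their median width was 9, 8 and 10 nt in replicates 1, 2 and 3, against 25, 13 and 25 nt on other chromosomes, a mean difference of -12.0 nt ± 6.08 (SD, n = 3) with the same sign in 3 of 3 libraries (exact two-sided sign-flip permutation test, p = 0.25, the smallest possible). Widths of exactly 25 nt made up 52.4% and 47.7% of other intervals in replicates 1 and 3 but 15.8% and 2.86% of the mitochondrial ones, whereas in replicate 2 the shares were 8.98% and 9.52%. Intervals under 5 nt made up 42.1%, 38.1% and 22.9% of the mitochondrial intervals, against 6.51%, 24.3% and 9.18% of the others. Close neighbours were also more frequent among them in each library, and the part of interval density in this was not tested. A neighbour within 10 nt in the same library was found for 28.9%, 54.3% and 35.7% of mitochondrial intervals. For the others this was 9.52%, 42.2% and 13.4% (difference 17.9 ± 5.32 percentage points, positive in 3 of 3 libraries, exact p = 0.25, the smallest possible). Neither difference can pass 0.05 with 3 libraries. An overlap of more than 10 nt with the adjacent interval was not counted as a neighbour. Overlaps occurred only among the others, by up to 45, 114 and 32 nt in replicates 1, 2 and 3. The neighbour shares of the others may therefore be too low.

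An interval of another library lay within 10 nt on the same strand for 27 of 38, 48 of 105 and 41 of 70 mitochondrial intervals in replicates 1, 2 and 3. These are 71.1% (95% Wilson interval 55.2 to 83.0), 45.7% (36.5 to 55.2) and 58.6% (46.9 to 69.4). The shares on other chromosomes were 62.8%, 20.9% and 47.6%. The mitochondrial share was higher in 3 of 3 libraries, by 14.7 ± 8.88 percentage points (SD; exact two-sided sign-flip permutation test, p = 0.25, the smallest possible). The mean difference was 9.59 points without replicate 2. The Wilson interval of the mitochondrial share held the other share in replicates 1 and 3, and lay above it in replicate 2 only. Mitochondrial genes were covered by intervals over 2.92%, 8.15% and 5.86% of their length, and the part of this density in the sharing was not tested. By class, the mitochondrial share was 61.1%, 70% and 68.4% for rRNA and 77.8%, 37.8% and 54.5% for coding genes in replicates 1, 2 and 3. The rRNA share was thus below that of other chromosomes in replicate 1. The coding share was above it in each library, but its Wilson intervals held the other share in replicate 1 (54.8 to 91.0) and replicate 3 (40.1 to 68.3). Intervals with a counterpart in both other libraries numbered 16 in replicate 1, of which 9 were in rRNA, 6 in coding genes and 1 in a tRNA gene. In replicate 2 they also numbered 16 (10, 5 and 1), and in replicate 3 they numbered 15 (7, 7 and 1). In replicate 2, 50% of rRNA intervals but 6.76% of coding intervals had a counterpart in both others. This contrast was weaker in replicate 1, with 50% and 33.3%, and in replicate 3, with 36.8% and 15.9%.

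The number of intervals per gene differed from that of other genes in no common direction. A mitochondrial gene with any interval held on average 3.45, 4.20 and 3.5 intervals in replicates 1, 2 and 3, against 2.74, 5.69 and 3.56 on other chromosomes. The difference of -0.28 ± 1.12 was positive in 1 of 3 libraries and lay within the spread between them (exact two-sided sign-flip permutation test, p = 0.75). It was 0.32 without replicate 2.

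**Figure D5:**
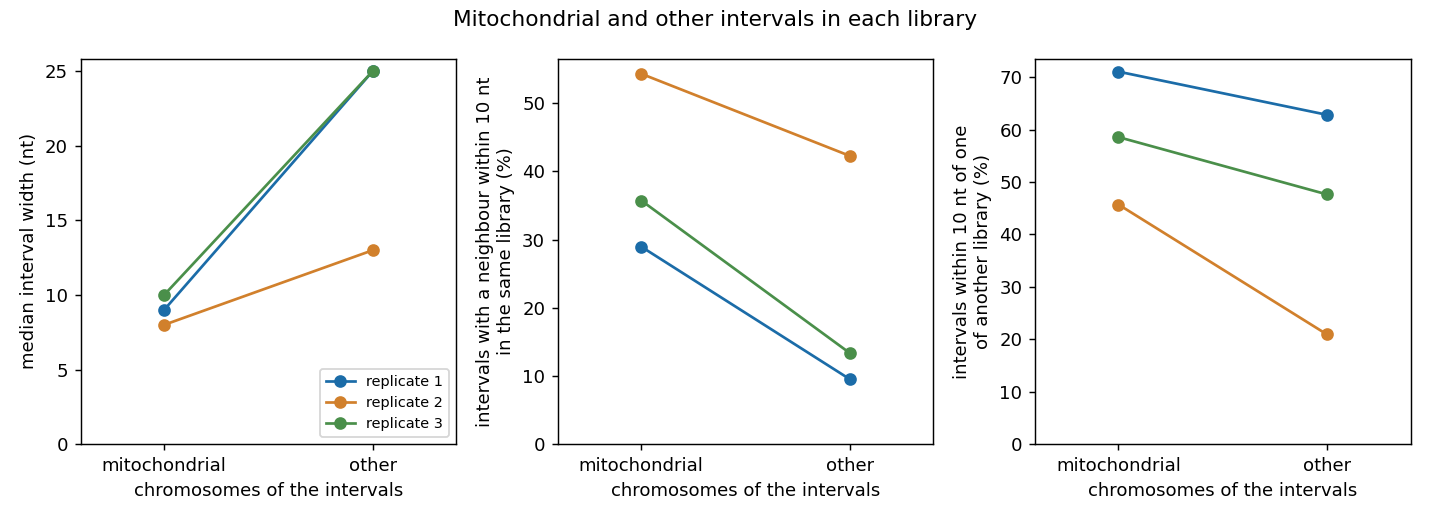
Median interval width in nt (left), share of intervals with a neighbour within 10 nt in the same library (middle, %) and share within 10 nt of an interval of another library (right, %), for mitochondrial intervals and those of other chromosomes. Points are libraries and lines join the 2 values of a library. In the middle panel an overlap of more than 10 nt is not counted as a neighbour. In every library the mitochondrial value is lower for width and higher for both shares.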

How the data were processed

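For each library the authors deposited its own 6-column list of called intervals, which gives position, strand and a FlyBase gene ID. The deposited score is 0 in every row and was not used. Per the submitters' processing notes, CASAVA 1.4, TopHat2 2.0.13 and build dm3 were used. Not given in the sources used here are the peak caller, its threshold and whether the 5-nt random barcode served to remove PCR duplicates. A position assigned to a second gene was counted once, which affected no mitochondrial interval. Positions were made 1-based. Intervals of different libraries were called near within 10 nt on 1 strand, and joined into sites within 50 nt. Shares have 95% Wilson intervals. Differences over the 3 libraries were tested with an exact two-sided sign-flip permutation test, which cannot go below p = 0.25. The search for near intervals was checked against an exhaustive one for part of the intervals of replicate 1. It also found copies of these intervals that had been shifted by less than 10 nt, which tests for missed hits only. All mitochondrial genes with an interval are accounted for, and genes and sites found in all 3 libraries are described first. The 10 lists of nuclear mitochondrial genes and cell type markers (214 symbols) could not be matched to gene IDs, so the germline identity of the cells was not checked here, and the lists give no result. Sequences were not used here. Members, lists and tests were chosen with earlier results of these data known. The software was statsmodels 0.14.6, pandas 2.3.3, scipy 1.17.1, numpy 2.4.6, matplotlib 3.10.9 and Python 3.11.15. The alternatives were other distances, widths, strand rules, covered nucleotides and each library left out.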

Additional observations from a re-analysis of the deposited data

How the results depend on the processing

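Of 106 alternative values, 92 were counted as unchanged, 13 as moved and 1 as reversed. A difference counted as unchanged if it kept its sign, whatever its size. A share did so within 1 SD of the libraries, and a count within 1.5 times. Shares of single genes made up 40 of the 106, and all 40 were counted as unchanged. The mitochondrial share (0.615%) was 0.238% among intervals at or above the median width. The 10 genes common to the libraries became 5 with at least 2 intervals in each, 18 with at least 2 of 3 libraries, 4 among intervals at or above the median width, and 10 to 17 when a library was omitted (17 without replicate 1). The share of mitochondrial intervals near one of another library (58.4%) was 18.1% with an exact shared 5′ edge, 73.2% within 50 nt and 40.4% to 44.8% when a library was omitted, which also removes a library to be near to. The 12 common sites became 33 with at least 2 of 3 libraries and 14 to 23 when a library was omitted (23 without replicate 1, 19 without replicate 3). The difference in intervals per gene (-0.28) reversed to 0.32 without replicate 2, the other omissions giving -0.78 and -0.39. The cause of the change with width was not tested. Stricter rules can only lower the number of common genes, and looser rules or fewer libraries can only raise it. The size of such a change is not fixed in this way. The differences in intervals per gene were 0.71, -1.49 and -0.06 in replicates 1, 2 and 3, so the sign of their mean rested on replicate 2. The excess of the rRNA over the coding density (4.95 per kb) was 2.99 without srRNA, 8.24 without lrRNA and 3.15 after joining within 10 nt. These alternatives were chosen after seeing the data, as were those for the share of each gene. In replicate 2 the excess without srRNA was small, with 6.80 per kb in lrRNA and 6.62 in coding genes. For shares by chromosome, strand, class or gene, each library's value does not depend on the others. Omitting 1 of 3 libraries then cannot move the mean by 1 SD. Counting all rows could not change the strand and class shares, since no mitochondrial position was repeated. A difference of 1 sign in 3 of 3 libraries cannot reverse when 1 is omitted. Many of the 92 values could therefore not have come out otherwise, and their number does not measure robustness. No paired analysis was possible because there is no second group whose replicates could be paired with these, and differences within a library are paired by their construction. Read depth is unknown, so an absent interval sets no limit on crosslinking.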
